A study of Mus musculus with 70 samples.

Results

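The genes followed here are 7 members of the RGS family, Rgs1, Rgs2, Rgs3, Rgs10, Rgs14, Rgs16 and Rgs19, which encode regulators of G protein signaling. They were taken by symbol from a list that was chosen with earlier results of these data known. They matched 7 of the 53465 Ensembl gene identifiers of a count table. All 7 were among the 13173 protein-coding genes that passed the filter on low counts and were tested. RNA was sequenced from Foxp3+ regulatory T cells (Tregs) sorted from 5 male mice that carried the allele Foxp3tm4(YFP/icre)Ayr on a B6.129(Cg) background (Foxp3-YFP-cre mice), aged 16.6 to 18.6 weeks, in which the Foxp3 locus drives a fusion of yellow fluorescent protein (YFP) and Cre. Every group carried this allele and no group received a treatment. ST2, the IL-33 receptor encoded by Il1rl1, and the activation marker CD44 divided the sorted CD4+ YFP+ cells. ST2+ CD44hi and ST2- CD44hi Tregs came from blood, spleen, lungs, visceral adipose tissue (VAT), colon and skin, and ST2- CD44lo CD62L+ Tregs, the central population, came from spleen and lungs. Each mouse gave a library to each of these 14 groups, usually from 220 sorted cells.

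RGS proteins bind activated G protein alpha subunits and speed the hydrolysis of their GTP, which shortens the signal that a G protein-coupled receptor sends after it binds its ligand. In lymphocytes these receptors include those for chemokines and for signaling lipids, so RGS proteins tune migration into, within and out of tissues. Rgs1, Rgs2, Rgs3 and Rgs16 belong to the R4 subfamily, of which Rgs1 and Rgs16 are known in T and B cells for restraining chemokine responses and Rgs2 is known for its preference for the Gq class. Rgs10 and Rgs14 belong to the R12 subfamily, in which Rgs14 carries Ras-binding and GoLoco domains beside its RGS domain. Rgs19, also called GAIP, belongs to the RZ subfamily.

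Of 70 libraries, 67 held over 1000000 counts and were analysed, with totals of 1304560 to 2759926 counts. The other 3, from blood ST2+ Tregs of mouse 1 and colon ST2+ Tregs of mice 2 and 5, held 3582 to 488666 counts, which left n = 4 for blood ST2+ and n = 3 for colon ST2+ Tregs. Of the kept libraries, 7 came from fewer than 220 cells. Il1rl1 followed the ST2 gate in every tissue, and the 7 Treg markers Foxp3, Cd4, Cd3e, Cd3d, Il2ra, Ctla4 and Ikzf2 summed to 2472 to 5682 CPM (counts scaled to 1000000 per library) in the kept libraries. Of the 8 myeloid markers, 4 (Csf1r, Itgam, Adgre1 and Cd14) had a median of 0 CPM over the 67 libraries, and the others had a median above 0. The 6 epithelial markers reached 1102 summed CPM in colon ST2+, 804 in colon ST2-, 714 in skin ST2+ and 1129 in skin ST2- CD44hi Tregs, and no more than 200.3 CPM in any other tissue. The 8 myeloid markers summed to 1118 to 1196 CPM in colon ST2+ Tregs and to no more than 643 CPM in any other library, and the 5 platelet markers to 228 to 713 CPM in blood ST2+ Tregs, 58.6 to 289.7 CPM in blood ST2- CD44hi Tregs and no more than 94.0 CPM elsewhere. The part of these cells in the levels below was not tested. In bulk libraries a smaller share of expressing cells and less RNA per cell cannot be told apart.

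Rgs1, Rgs10, Rgs14 and Rgs19 had higher mean levels per kilobase than Rgs3 and Rgs16 in every group, whereas Rgs2 ranged from low to high. Per kilobase of the longest coding transcript, the median level over the 67 libraries was 236 CPM for Rgs2, 194 CPM for Rgs10, 176 CPM for Rgs1, 134 CPM for Rgs19 and 107 CPM for Rgs14, against 11.5 CPM for Rgs16 and 9.04 CPM for Rgs3. Each gene was found in all 67 libraries except Rgs16, which had no count in 1 blood ST2+ library. The spread over groups was widest for Rgs16 and Rgs2, whose highest group mean was 21.3 and 13.4 times the lowest. For Rgs3 this ratio was 5.47, and for Rgs1, Rgs10, Rgs14 and Rgs19 it lay between 1.94 and 2.62. Ranked on the log2 scale, the range of group means of Rgs16 exceeded that of 92.0% of tested genes and that of Rgs2 exceeded 88.2%, while Rgs19 exceeded only 19.9%. The plot of CPM per library shows the wide spread of Rgs2 and Rgs16 and the narrower bands of the other genes.

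**Figure D1:**
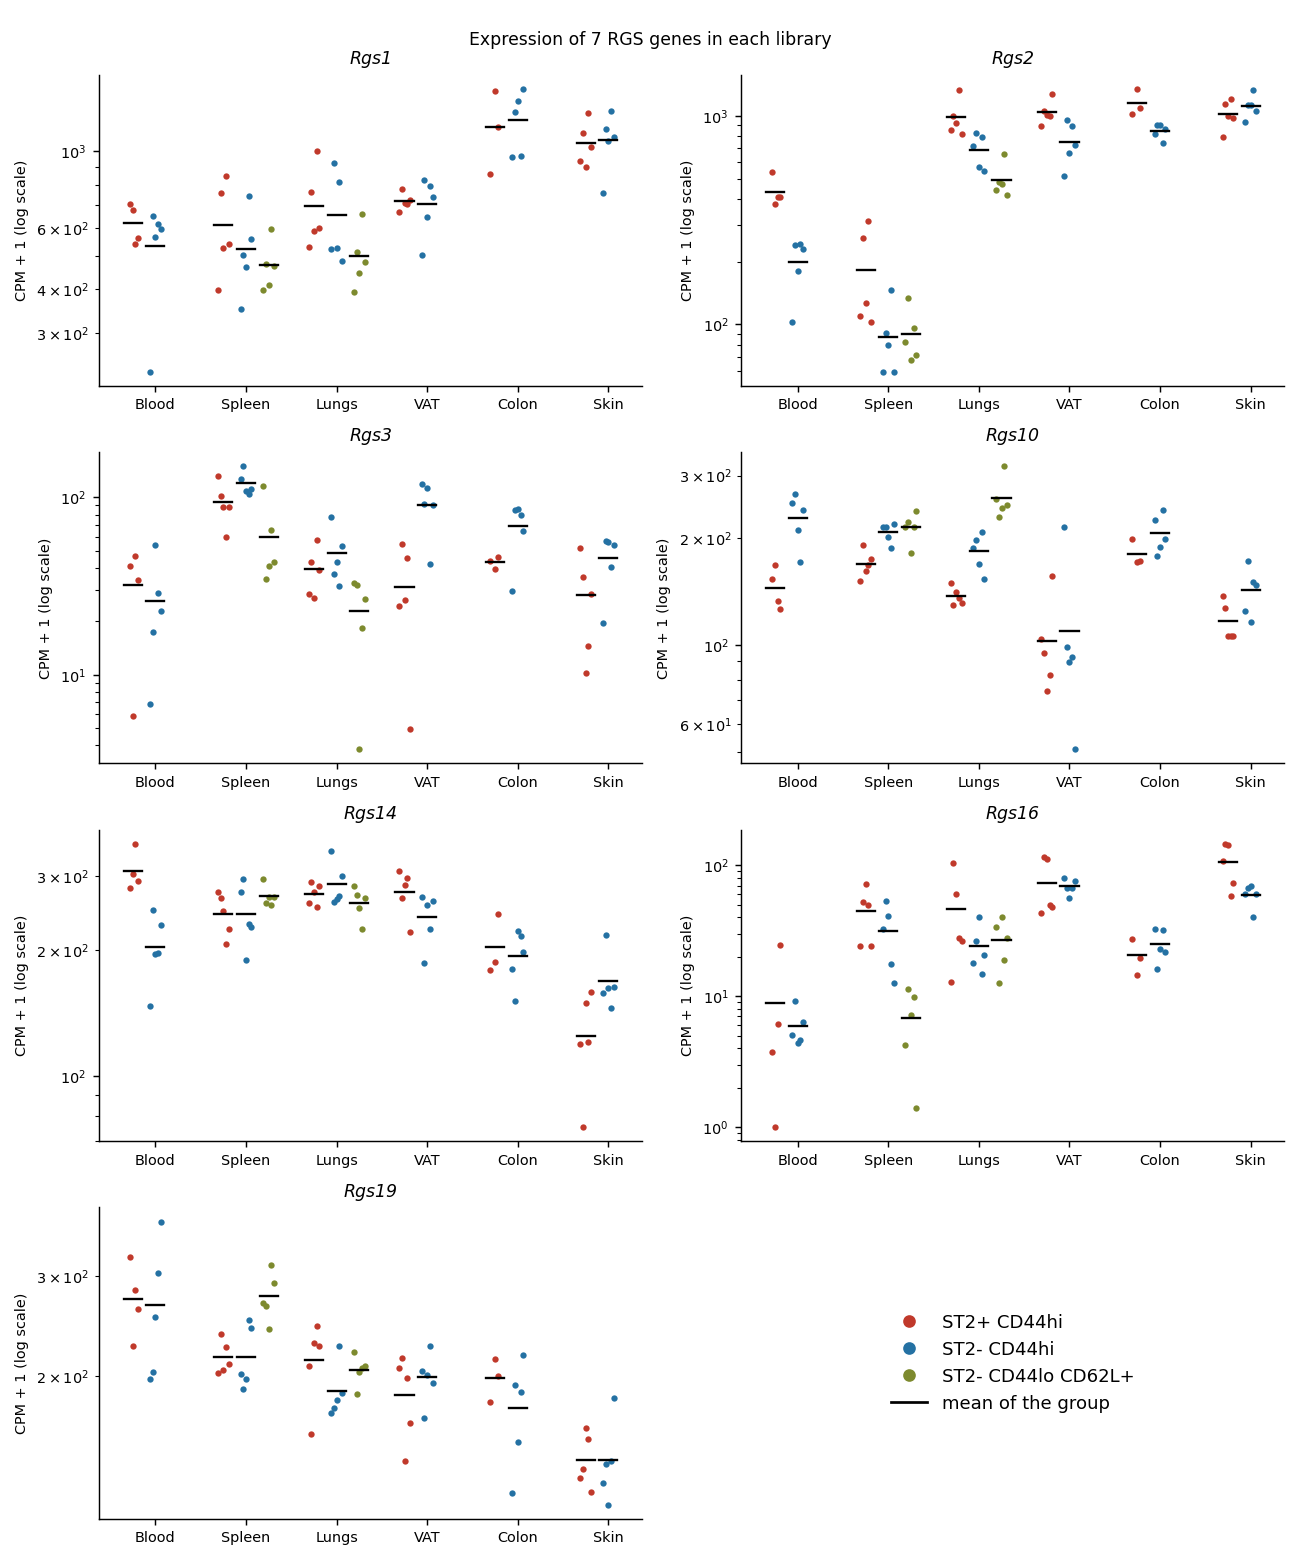
CPM + 1 of each gene in each library (log axis) by tissue, with 1 panel per gene, points for the libraries of ST2+ CD44hi, ST2- CD44hi and ST2- CD44lo CD62L+ Tregs and bars for group means. Rgs2 sits lowest in spleen, from 58.3 CPM in an ST2- CD44hi library, and above 400 CPM in every library of lungs, VAT, colon and skin, whereas Rgs10, Rgs14 and Rgs19 stay within a narrow band.

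The first question was how far the levels of the RGS genes depended on the tissue. A gene was called when the fold change was at least 1.5 and the Benjamini-Hochberg adjusted p from edgeR's quasi-likelihood test was at most 0.05, adjusted over all tested genes. In F tests over the 6 tissues, all 7 genes passed in ST2+ Tregs, where 47.7% of tested genes did, and all 7 passed in ST2- CD44hi Tregs, where 43.3% did. The smallest F-test p belonged to Rgs2, with adjusted p = 5.7e-14 in ST2+ and 9.3e-20 in ST2- CD44hi Tregs. Against spleen, ST2+ Tregs of skin had 5 of the 7 genes called (29.1% of tested genes called), those of colon 2 (10.5%), those of VAT 3 (11.2%), those of lungs 1 (4.9%) and those of blood 2 (4.35%). For ST2- CD44hi Tregs the numbers were 4 for skin (30.9%), 2 for colon (11.1%), 2 for VAT (5.91%), 1 for lungs (4.08%) and 3 for blood (3.61%). Rgs2 was the only one of the 7 called in all 5 tissues in both populations. The median log2 fold change of the 7 genes in skin was -0.54 in ST2+ and -0.53 in ST2- CD44hi Tregs, beside medians of 0.00 over all tested genes, since Rgs3, Rgs10, Rgs14 and Rgs19 were lower there while Rgs1 and Rgs2 were higher.

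**Figure D2:**
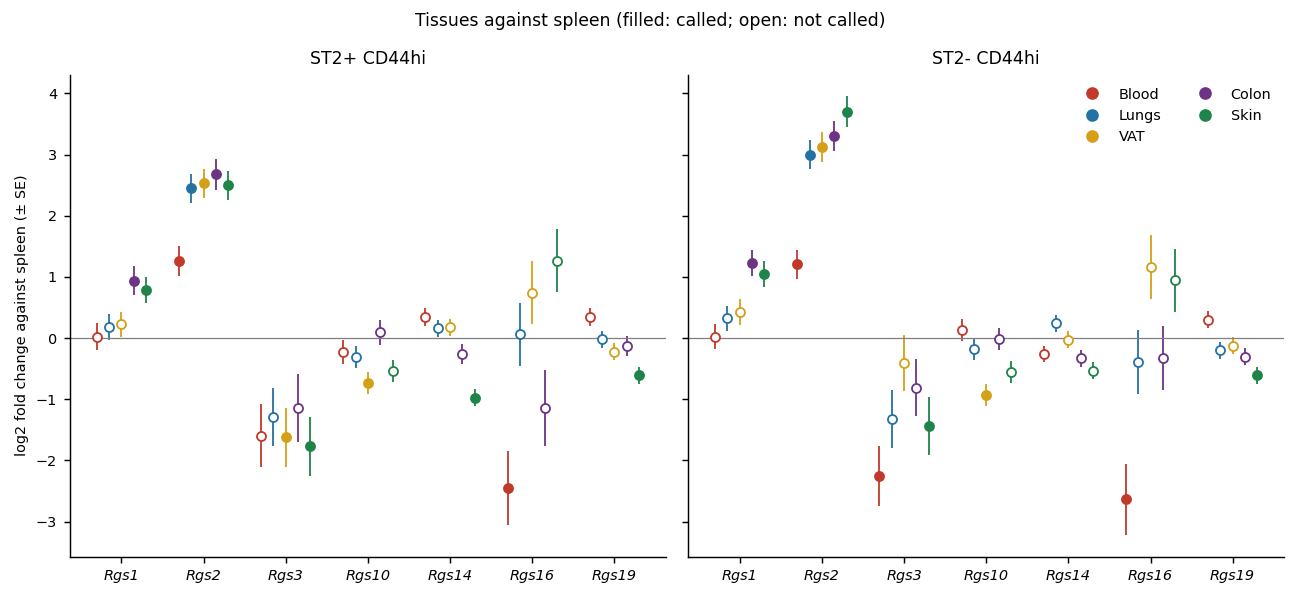
Log2 fold change against spleen ± SE of each RGS gene in blood, lungs, VAT, colon and skin, for ST2+ CD44hi and ST2- CD44hi Tregs, with filled points for called differences. Rgs2 is shifted upward in every tissue, by 1.20 to 3.70, while Rgs16 is shifted downward in blood, to -2.45 and -2.63.

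Rgs1 (ENSMUSG00000026358, chr1:144242296-144249242, minus strand, GRCm38 as for all positions here), the R4 member linked to chemokine desensitization, was highest in colon and skin. In colon it reached 862, 1487 and 1174 CPM in mice 1, 3 and 4 for ST2+ Tregs and 965, 1298, 1398, 968 and 1515 CPM in mice 1 to 5 for ST2- CD44hi Tregs. The spleen gave 397, 758, 525, 847 and 539 CPM in mice 1 to 5 for ST2+ and 351, 500.4, 463, 744 and 557 CPM in mice 1 to 5 for ST2- CD44hi Tregs. In both populations every colon library lay above every spleen library. The difference from spleen in colon was a log2 fold change of 0.94 ± 0.23 (SE), adjusted p = 0.0052 in ST2+ and 1.23 ± 0.21 (SE), adjusted p = 1.3e-05 in ST2- CD44hi Tregs. Skin held 1056 ± 157 CPM (SD, n = 5) and 1079 ± 201 CPM (SD, n = 5) respectively, again without overlap with spleen (log2 fold changes 0.79 ± 0.21 and 1.04 ± 0.21 (SE), adjusted p = 0.0025 and 6.6e-05). The colon call in ST2+ Tregs was lost without mouse 3, whose library was the highest (0.68, adjusted p = 0.24), and the skin call in ST2+ Tregs was lost with all 70 libraries (0.79, adjusted p = 0.078). Blood, lungs and VAT were not called against spleen in either population, with log2 fold changes from 0.02 to 0.42. In order of group means, colon and skin led VAT, lungs, blood and spleen in both populations, and among neighbours in that order only skin over VAT in ST2- CD44hi Tregs was called (0.62, adjusted p = 0.026), a call lost in 5 of 15 alternatives (adjusted p up to 0.21), each omission of mouse 2, 3, 4 or 5 among them. Myeloid and stromal markers also reached their highest sums in colon ST2+ libraries, at 1118 to 1196 and 384 to 1219 CPM. Skin libraries held 196 to 281 and 27.2 to 185 CPM of these lists in ST2+ and 179 to 410 and 61.5 to 751 CPM in ST2- CD44hi Tregs. The part of these markers' cells in the level of Rgs1 was not tested.

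Rgs2 (ENSMUSG00000026360, chr1:143999338-144004161, minus strand) lies next to Rgs1 but for Rgs13 between them, and was higher in every other tissue than in spleen. In spleen it was 109, 257, 125, 311 and 102 CPM in mice 1 to 5 for ST2+ Tregs and 58.3, 89.9, 78.7, 144 and 58.4 CPM in mice 1 to 5 for ST2- CD44hi Tregs. Blood gave 534, 377, 408 and 407 CPM in mice 2 to 5 for ST2+ and 101, 239.3, 178, 243 and 229 CPM in mice 1 to 5 for ST2- CD44hi Tregs. These were the lowest tissues, and ST2+ libraries of blood lay above every ST2+ library of spleen, whereas the ST2- CD44hi libraries of blood and spleen overlapped. In lungs the levels were 849.8, 999, 920.1, 1332 and 820.3 CPM in mice 1 to 5 for ST2+ and 712, 822, 567, 788 and 545 CPM in mice 1 to 5 for ST2- CD44hi Tregs. Skin held 792, 1136, 1000.4, 1201 and 971 CPM in mice 1 to 5 for ST2+ and 935, 1124, 1129, 1334 and 1056 CPM in mice 1 to 5 for ST2- CD44hi Tregs. Every lungs and skin library thus lay above every spleen and blood library of its population. VAT averaged 1043 ± 138 CPM (SD, n = 5) and 748 ± 177 CPM (SD, n = 5), and colon 1149.8 ± 175 CPM (SD, n = 3) and 844 ± 65.8 CPM (SD, n = 5), for ST2+ and ST2- CD44hi Tregs.

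Against spleen, Rgs2 was higher in skin ST2- CD44hi Tregs by 13-fold (log2 fold change 3.70 ± 0.25 (SE), adjusted p = 7.9e-19) and in skin ST2+ Tregs by 5.66-fold (2.5 ± 0.24 (SE), adjusted p = 3.2e-13). The lungs differed by 2.45 ± 0.24 (SE), adjusted p = 4.4e-12 in ST2+ and 3.0 ± 0.24 (SE), adjusted p = 2.1e-14 in ST2- CD44hi Tregs. For VAT and colon the log2 fold changes lay between 2.53 and 3.30. Blood stood between, at 1.26 ± 0.24 (SE), adjusted p = 0.00035 in ST2+ and 1.20 ± 0.23 (SE), adjusted p = 0.00035 in ST2- CD44hi Tregs. The blood call in ST2+ Tregs was lost with all 70 libraries (0.95, adjusted p = 0.075). Among lungs, VAT, colon and skin no neighbours in the order of means were called, whereas lungs over blood was called in both populations (1.19, adjusted p = 0.00074 in ST2+ and 1.79, adjusted p = 4.6e-08 in ST2- CD44hi Tregs). Skin over lungs, which were not neighbours, was called in ST2- CD44hi Tregs (0.70 ± 0.22 (SE), adjusted p = 0.017), a call lost without mouse 3 or 5 and with all 70 libraries (adjusted p = 0.072 to 0.12). In central Tregs Rgs2 was likewise higher in lungs than in spleen, with 81.6, 133, 66.8, 94.6 and 70.1 CPM in mice 1 to 5 in spleen and 437, 479, 469.6, 658 and 416 CPM in mice 1 to 5 in lungs. The lowest lung library of central Tregs therefore exceeded the highest spleen library, and the log2 fold change was 2.46 ± 0.24 (SE), adjusted p = 7.7e-12. The spleen was dissociated mechanically and blood was not digested, while lungs, VAT, colon and skin were digested with collagenase at warm temperature. Red cells were lysed in blood, spleen, lungs and VAT. CD4+ T cells were enriched before the sort in spleen and lungs only. Skin was digested longer and with more collagenase than lungs, VAT and colon. Between a digested tissue and spleen or blood, tissue therefore cannot be told apart from digestion. The same holds between skin and the other digested tissues. Between spleen and blood, VAT, colon or skin, tissue cannot be told apart from enrichment.

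The promoter of Rgs2 is shown beside that of Rgs16, because these were the 2 genes with the widest range of group means. The windows are the 250 bases before the annotated start in RefSeq (GRCm38.p6), at chr1:144004150-144004399 on the minus strand for Rgs2 and chr1:153740103-153740352 on the plus strand for Rgs16, written 5′ to 3′, and capitals mark TGACG on either strand, the half-site of the cAMP response element.
Rgs2: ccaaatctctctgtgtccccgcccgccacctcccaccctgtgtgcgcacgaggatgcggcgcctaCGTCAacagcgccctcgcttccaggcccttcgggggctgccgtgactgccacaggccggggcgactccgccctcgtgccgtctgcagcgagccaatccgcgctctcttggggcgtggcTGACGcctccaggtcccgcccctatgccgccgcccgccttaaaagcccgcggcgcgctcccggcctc
Rgs16: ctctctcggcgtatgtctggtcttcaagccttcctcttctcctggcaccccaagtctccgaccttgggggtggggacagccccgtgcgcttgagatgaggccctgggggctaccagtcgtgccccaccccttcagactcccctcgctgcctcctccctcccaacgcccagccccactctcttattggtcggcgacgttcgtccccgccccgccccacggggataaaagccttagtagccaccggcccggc
The Rgs2 window held TGACG at 2 places, beginning 185 and 67 bases before the start, and 17.8% of the 32851 promoter windows of that length held at least 1. The Rgs16 window held none. Neither window held the full element TGACGTCA (1.55% of windows), the AP-1 element TGANTCA (6.75%), TATAAA (12.4%) or GGAAA, the core of NFAT sites (55.6%), with both strands searched and TGACG lying within TGACGTCA. RefSeq entries were found for 5 of the 7 genes, with Rgs3, Rgs10 and Rgs19 as the others, and of these only Rgs3 held TATAAA, at both of its annotated starts.

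Immediate early genes, which respond within minutes to receptor signals and to cell handling, were mostly higher in the solid tissues where Rgs2 was high. The list held 18 such genes, all tested. Against spleen, ST2+ Tregs of skin had 13 called higher and 0 lower, and those of colon 13 and 1. Those of VAT had 14 and 2 and those of lungs 10 and 1. Medians were 0.89 to 1.70 on the log2 scale, beside medians of 0.00 to 0.05 over all tested genes. Of tested genes, 29.1% were called in skin, 10.5% in colon, 11.2% in VAT and 4.9% in lungs. For ST2- CD44hi Tregs skin gave 13 higher and 1 lower, colon 14 and 1, VAT 11 and 1 and lungs 10 and 3. Here 30.9%, 11.1%, 5.91% and 4.08% of tested genes were called, in the same order of tissues. In blood none was higher, and 5 were lower in ST2+ and 3 in ST2- CD44hi Tregs (medians -0.50 and -0.79), while Rgs2 was higher there in both populations. The blood comparisons had 4.35% (ST2+) and 3.61% (ST2- CD44hi) of tested genes called. In the central Tregs 7 were higher in lungs than in spleen and none lower (3.2% of tested genes called). Among them were Nr4a1, an orphan nuclear receptor induced by antigen receptor signals (3.09 ± 0.39 (SE), adjusted p = 2.0e-08), Dusp1, a MAP kinase phosphatase (1.83 ± 0.23 (SE), adjusted p = 3.3e-08), and Junb, an AP-1 subunit (0.94 ± 0.17 (SE), adjusted p = 9.1e-05). Summed over the list, group means ran from 2272 CPM in blood ST2- CD44hi Tregs to 10343 CPM in colon ST2+ Tregs. The part of these genes' signals in the level of Rgs2 was not tested.

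**Figure D3:**
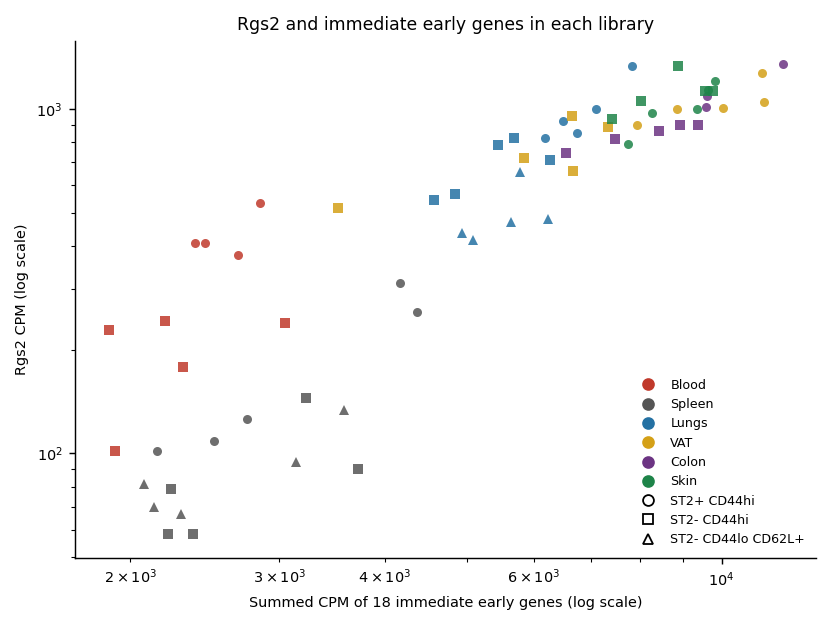
CPM of Rgs2 in each of the 67 libraries against the summed CPM of the 18 immediate early genes, colored by tissue, with a marker for each population. Spleen and blood libraries lie at 1887 to 4370 summed CPM, and within that range blood ST2+ libraries, at 377 to 534 CPM of Rgs2, sit above the spleen libraries.

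Rgs16 (ENSMUSG00000026475, chr1:153740349-153745468, plus strand), an R4 member that is induced on T cell activation, was low in blood and highest in skin and VAT. In blood the libraries held 2.74, 0, 5.08 and 23.7 CPM in mice 2 to 5 for ST2+ and 4.02, 8.19, 3.41, 3.60 and 5.32 CPM in mice 1 to 5 for ST2- CD44hi Tregs. The spleen gave 23.1, 51.2, 70.8, 49.1 and 23.0 CPM in mice 1 to 5 for ST2+ and 31.5, 52.8, 39.8, 16.5 and 11.5 CPM in mice 1 to 5 for ST2- CD44hi Tregs. The ST2- CD44hi libraries of blood all lay below those of spleen, whereas a blood ST2+ library of mouse 5 reached into the range of spleen. The log2 fold change of blood against spleen was -2.45 ± 0.61 (SE), adjusted p = 0.0079 in ST2+ and -2.63 ± 0.58 (SE), adjusted p = 0.0023 in ST2- CD44hi Tregs. In ST2+ Tregs this call was lost without mouse 2, 3 or 4 (-2.12, -1.81 and -2.26, adjusted p = 0.079, 0.18 and 0.069), without the libraries of fewer than 220 cells (-1.61, adjusted p = 0.29) and with the compared groups only (-2.46, adjusted p = 0.18). In ST2- CD44hi Tregs it was lost with voom (-2.49, adjusted p = 0.051). In skin the level was 107, 145, 141, 57.6 and 72.0 CPM in mice 1 to 5 for ST2+ Tregs and 58.5 ± 11.4 CPM (SD, n = 5) for ST2- CD44hi Tregs. VAT held 72.8 ± 36.4 CPM (SD, n = 5) and 68.1 ± 9.26 CPM (SD, n = 5). Neither tissue was called against spleen, with log2 fold changes of 0.74 to 1.27 and adjusted p = 0.052 to 0.36, although skin ST2+ passed in 8 of 16 alternatives. Of the 15 pairs of tissues, 5 were called for Rgs16 in each population (12.1% of such comparisons over all tested genes in ST2+ and 11.8% in ST2- CD44hi Tregs). The antisense gene Gm28513 overlaps an exon of Rgs16 and the counting used no strand. Its own count was at most 9 in any library, which does not measure reads shared by the 2 genes. The part of such reads in the level of Rgs16 was not tested.

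Rgs3 (ENSMUSG00000059810, chr4:62559847-62704001, plus strand), the R4 member with long amino-terminal extensions in some isoforms, was highest in spleen in both CD44hi populations. The spleen held 131, 101, 87.7, 58.4 and 87.5 CPM in mice 1 to 5 for ST2+ Tregs and 125, 149, 108, 104 and 111 CPM in mice 1 to 5 for ST2- CD44hi Tregs. Skin held 50.6, 34.6, 9.25, 13.5 and 27.3 CPM in mice 1 to 5 for ST2+ Tregs and 18.7, 55.8, 55.3, 39.2 and 52.7 CPM in mice 1 to 5 for ST2- CD44hi Tregs. All skin libraries lay below all spleen libraries of the same population, with log2 fold changes of -1.77 ± 0.48 (SE), adjusted p = 0.0034 and -1.43 ± 0.48 (SE), adjusted p = 0.016. The second of these was lost without mouse 2 (adjusted p = 0.054) or mouse 4 (0.057). Blood was lower than spleen in ST2- CD44hi Tregs (-2.25 ± 0.49 (SE), adjusted p = 0.0019), while the difference in ST2+ Tregs, -1.60 ± 0.52 (SE), adjusted p = 0.056, did not pass. In VAT the ST2+ Tregs were lower than in spleen (-1.62 ± 0.48 (SE), adjusted p = 0.015), a call that was lost without mouse 5 (-1.37, adjusted p = 0.13), and the ST2- CD44hi Tregs were not (-0.41 ± 0.46 (SE), adjusted p = 0.69). Single libraries stood apart most often for Rgs3, which gave 4 of the 6 outliers found over the 7 genes. These came from 91 tests, of which chance alone flags about 1 in 20.

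Rgs10 (ENSMUSG00000030844, chr7:128373621-128418758, minus strand) and Rgs14 (ENSMUSG00000052087, chr13:55369732-55384687, plus strand), the R12 members, differed in the tissue of their lowest group means. For Rgs10 this was VAT, with 103, 94.4, 73.3, 81.6 and 155 CPM in mice 1 to 5 for ST2+ and 214, 98.1, 88.8, 91.4 and 49.95 CPM in mice 1 to 5 for ST2- CD44hi Tregs. The spleen averaged 169 ± 14.8 CPM (SD, n = 5) and 207 ± 13.4 CPM (SD, n = 5). Both VAT groups were called below spleen (-0.74 ± 0.18 (SE), adjusted p = 0.0030 and -0.92 ± 0.18 (SE), adjusted p = 0.00024), although 1 library of each group lay within the range of spleen. The 4 ST2- CD44hi libraries of VAT from fewer than 220 cells held no more than 98.1 CPM and the library of mouse 1, the only one of 220 cells, held 214 CPM. Without the smaller libraries the difference in ST2- CD44hi Tregs was 0.043 (adjusted p = 1). In ST2+ Tregs the call was lost without mouse 2 (-0.65, adjusted p = 0.053) or mouse 3 (-0.65, adjusted p = 0.051). In skin Rgs10 had adjusted p = 0.018 and 0.015 with folds under 1.5 (log2 fold changes -0.54 and -0.55). Skin over VAT was not called for Rgs10, at 0.20 (adjusted p = 0.46) in ST2+ and 0.38 (adjusted p = 0.14) in ST2- CD44hi Tregs.

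Rgs14, which links G protein and Ras signaling, was lowest in skin. In skin ST2+ Tregs it was 118, 74.4, 149, 119 and 157 CPM in mice 1 to 5, and in skin ST2- CD44hi Tregs 156, 215, 161, 144 and 162 CPM in mice 1 to 5. The spleen averaged 243 ± 28.3 CPM (SD, n = 5) for ST2+ and 242 ± 42.0 CPM (SD, n = 5) for ST2- CD44hi Tregs. No skin ST2+ library reached the spleen range, and the log2 fold change was -0.98 ± 0.14 (SE), adjusted p = 1.0e-07. In ST2- CD44hi Tregs it was -0.53 ± 0.14 (SE), adjusted p = 0.0022, under the fold required for a call. In ST2+ Tregs skin was also called below the next tissue in order, colon (-0.71, adjusted p = 0.0009), a call lost without mouse 2 (-0.55, adjusted p = 0.0044) or mouse 4 (-0.52, adjusted p = 0.079). Of the 15 pairs of tissues, 6 were called for Rgs14 in ST2+ Tregs (12.1% of such comparisons over all tested genes) and 1 in ST2- CD44hi Tregs (11.8%).

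Rgs19 (ENSMUSG00000002458, chr2:181688419-181693977, minus strand), the RZ member, had the narrowest range and, among the CD44hi groups, was highest in blood and lowest in skin. Blood held 322, 226, 282 and 261 CPM in mice 2 to 5 for ST2+ and 197, 203, 253, 303 and 372 CPM in mice 1 to 5 for ST2- CD44hi Tregs. Skin held 132, 137, 161, 154 and 124 CPM in mice 1 to 5 for ST2+ and 129, 139, 118, 141 and 182 CPM in mice 1 to 5 for ST2- CD44hi Tregs, with no overlap between skin and blood or between skin and spleen in either population. Against spleen, skin differed by -0.60 ± 0.14 (SE), adjusted p = 0.00052 in ST2+ and -0.60 ± 0.14 (SE), adjusted p = 0.00049 in ST2- CD44hi Tregs. Both lay close to the required fold and fell under it without mouse 2 (-0.54) or mouse 5 (-0.57) in ST2+ and without mouse 3 (-0.55) or mouse 4 (-0.53) in ST2- CD44hi Tregs, with adjusted p of at most 0.016 in these fits. Both also fell under it with the filter of 1 CPM in 50% of libraries (-0.58 in each). The other tissues were not called against spleen.

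The second question was whether ST2+ Tregs differed in RGS expression from ST2- CD44hi Tregs of the same tissue. Of the 42 comparisons of 7 genes in 6 tissues, 5 were called. Blood accounted for 3 (4.13% of tested genes called), VAT for 1 (3.2%) and spleen for 1 (0.357%). There were 0 calls by edgeR in lungs (0.789%), skin (0.22%) and colon (0.0683%), where 2, 1 and 0 of the 7 had an unadjusted p under 0.05 (10%, 8.46% and 5% of tested genes). The median log2 fold change of the 7 genes was 0.30 in blood and between -0.13 and 0.09 in the other tissues, beside -0.01 to 0.03 over all tested genes.

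**Figure D4:**
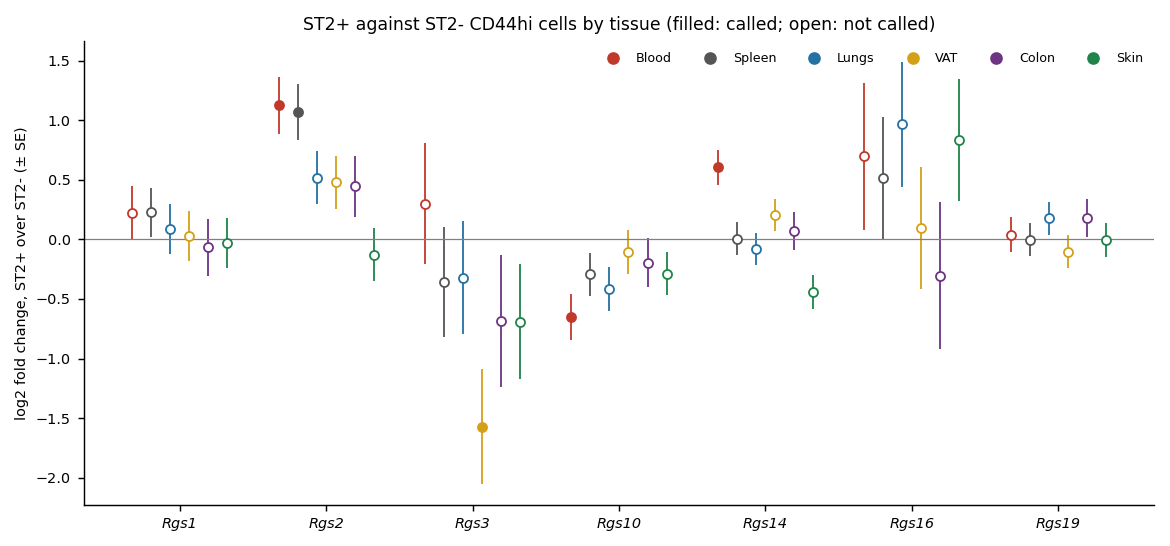
Log2 fold change ± SE of ST2+ against ST2- CD44hi Tregs for each RGS gene in each of the 6 tissues, with filled points for the 5 called differences. Rgs2 and Rgs14 lie above 0 and Rgs10 lies below 0 in blood, and Rgs2 lies above 0 in every tissue but skin.

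Rgs2 was higher in ST2+ than in ST2- CD44hi Tregs of blood, at 377 to 534 CPM against 101 to 243 CPM. Each blood ST2+ library exceeded each ST2- CD44hi library, and the log2 fold change was 1.12 ± 0.24 (SE), adjusted p = 0.0017. Leaving out the libraries of fewer than 220 cells gave 0.87 with adjusted p = 0.11, and including all 70 libraries gave 0.83 with adjusted p = 0.13. In spleen the ST2+ libraries held 102 to 311 CPM against 58.3 to 144 CPM, a log2 fold change of 1.07 ± 0.23 (SE), adjusted p = 0.012. The spleen groups overlapped, but ST2+ Tregs were higher in 5 of 5 mice, and the call was lost in 5 of 16 alternatives, among them the omission of mouse 2 (0.93, adjusted p = 0.24), mouse 3 (1.15, adjusted p = 0.099) or mouse 5 (1.11, adjusted p = 0.055). In lungs, VAT and colon the log2 fold changes of 0.52, 0.48 and 0.45 did not pass (adjusted p = 0.37, 0.23 and 1), though ST2+ Tregs were higher in 5 of 5, 5 of 5 and 3 of 3 mice. In skin it was -0.13 ± 0.22 (SE), adjusted p = 0.99, with ST2+ Tregs higher in 1 of 5 mice and a 95% interval of -0.56 to 0.30.

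Averaged over the 6 tissues, the ST2 difference of Rgs2 was 0.58 ± 0.09 (SE), adjusted p = 6.8e-06, with a fold just under 1.5, so that 0 of the 7 genes were called in this comparison (4.21% of tested genes called), with 4 at an unadjusted p under 0.05 (17.5%). This mean passed both limits in 10 of 16 alternatives, DESeq2 among them. The test of an interaction of tissue and ST2 gave adjusted p = 0.11 for Rgs2, and 0.013 when the mouse was added as a replicate block. The ST2 difference in skin was lower than the mean of the other 5 tissues by a log2 difference of -0.86 ± 0.25 (SE), with adjusted p = 0.13, or 0.021 with the replicate block.

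Rgs14 and Rgs10 moved in opposite directions between the blood populations. Rgs14 was 281, 302, 357 and 291 CPM in mice 2 to 5 in blood ST2+ Tregs and 146, 247, 194, 196 and 229 CPM in mice 1 to 5 in blood ST2- CD44hi Tregs. The groups did not overlap, and the log2 fold change was 0.61 ± 0.15 (SE), adjusted p = 0.0071. For Rgs10 the blood ST2+ libraries held 152, 168, 132 and 125 CPM in mice 2 to 5 and the ST2- CD44hi libraries 249.9, 265, 209, 171 and 239.4 CPM in mice 1 to 5. Here every ST2+ library was the lower, by -0.65 ± 0.19 (SE), adjusted p = 0.035. The Rgs14 call was lost in 6 of 16 alternatives, among them the omission of mouse 1 (0.50, adjusted p = 0.061), mouse 3 (0.60, adjusted p = 0.071) or mouse 4 (0.51, adjusted p = 0.096). The Rgs10 call was also lost in 6 of 16, among them the omission of mouse 2, 3, 4 or 5 (-0.76 to -0.57, adjusted p = 0.082 to 0.16). Platelet markers were more abundant in blood ST2+ than in blood ST2- CD44hi libraries, at 228 to 713 against 58.6 to 289.7 summed CPM, although none of the 5 was called in that comparison, and their part in the levels of Rgs2, Rgs10 and Rgs14 was not tested.

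Rgs14 was the only one of the 7 genes with a called interaction of tissue and ST2 (adjusted p = 0.024, with 1.4% of tested genes called). Its ST2 difference in blood exceeded the mean of the other 5 tissues by a log2 difference of 0.65 ± 0.16 (SE), adjusted p = 0.023, in a comparison with 1.13% of tested genes called. In skin its ST2 difference was -0.44 ± 0.14 (SE, adjusted p = 0.27), with ST2+ Tregs lower in 5 of 5 mice. The interaction was lost in 7 of 16 alternatives, among them the omission of mouse 1, 2, 3 or 4 (adjusted p = 0.053 to 0.26), and the blood difference in 5 of 15 (adjusted p up to 0.16).

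Of the remaining genes, Rgs3 was lower in ST2+ than in ST2- CD44hi Tregs of VAT, with 23.5, 53.3, 25.3, 44.7 and 3.97 CPM in mice 1 to 5 against 117, 90.1, 111, 41.1 and 89.6 CPM in mice 1 to 5. The groups overlapped, ST2+ Tregs were lower in 4 of 5 mice, and the log2 fold change of -1.57 ± 0.48 (SE), adjusted p = 0.049 lost its call in 12 of 16 alternatives, each omission of a mouse among them (-1.94 to -1.30, adjusted p = 0.059 to 0.24). Rgs1 differed by -0.07 to 0.23 over the 6 tissues, with none called and 95% intervals that reached no further than -0.53 and 0.66. Rgs16 ranged from -0.30 to 0.97 over the 6 tissues and Rgs19 from -0.10 to 0.18 over the 6 tissues, with none called.

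The third comparison set ST2- CD44hi Tregs against the central CD44lo CD62L+ Tregs of the same organ. Only Rgs16 was called, in spleen, where 4.99% of tested genes were called, and 0 of the 7 genes were called in lungs, where 5.55% were (3 of the 7 had an unadjusted p under 0.05, as did 18.3% of tested genes). In central Tregs of spleen Rgs16 was 3.26, 10.4, 6.14, 8.79 and 0.392 CPM in mice 1 to 5, below the 11.5 to 52.8 CPM of ST2- CD44hi Tregs in every mouse. The log2 fold change was 2.39 ± 0.56 (SE), adjusted p = 0.0030, and it remained called in all 16 alternatives (2.24 to 2.75, adjusted p = 0.00011 to 0.030). In lungs the central Tregs held 32.7, 11.5, 39.2, 17.97 and 27.0 CPM in mice 1 to 5 and the ST2- CD44hi Tregs 16.9, 25.6, 39.4, 13.8 and 19.6 CPM in mice 1 to 5. These groups overlapped, with a log2 fold change of -0.15 ± 0.52 (SE), adjusted p = 0.97. The difference between the organs, -2.54 ± 0.76 (SE), had adjusted p = 0.23, so that Rgs16 was not shown to respond differently in lungs and spleen (0.137% of tested genes called).

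**Figure D5:**
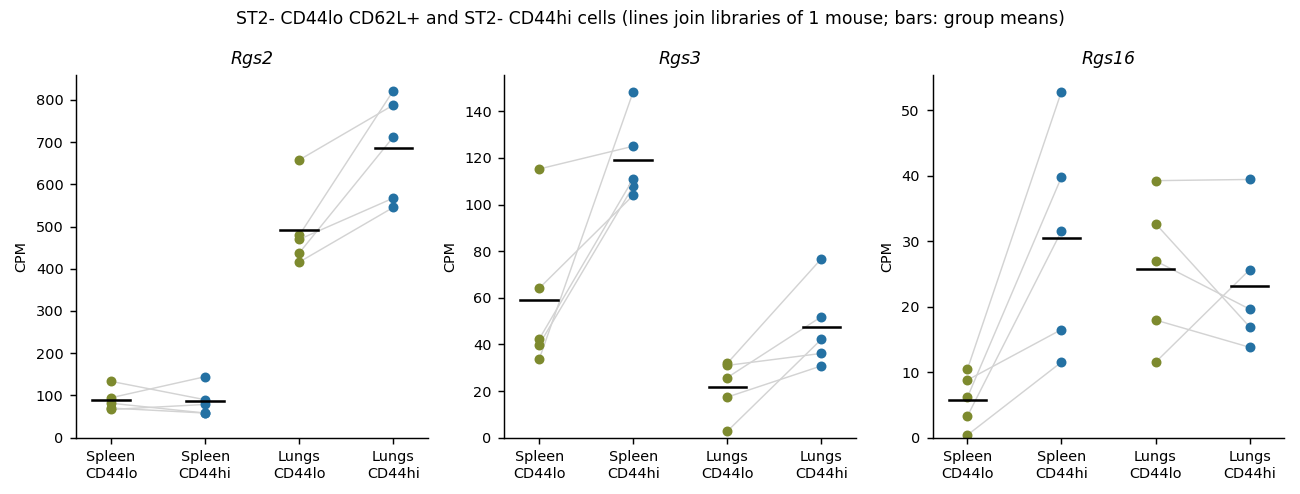
CPM (linear axis) of Rgs2, Rgs3 and Rgs16 in central CD44lo CD62L+ and in ST2- CD44hi Tregs of spleen and lungs, with lines joining the libraries of a mouse. Rgs16 rises from 0.392 to 10.4 CPM in central Tregs to 11.5 to 52.8 CPM in ST2- CD44hi Tregs of spleen, whereas in lungs the lines cross.

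Between the organs, the central Tregs of lungs held more Rgs16 than those of spleen (2.15 ± 0.56 (SE), adjusted p = 0.014), without overlap, and more Rgs2 (above), so that 2 of the 7 genes were called (3.2% of tested genes called). For Rgs16 this call was lost without mouse 1, 3 or 5 (1.83 to 1.98, adjusted p = 0.062 to 0.099) and with the compared groups only (adjusted p = 0.058). Rgs3 was 32.0, 31.0, 2.80, 17.4 and 25.8 CPM in mice 1 to 5 in lungs and 115, 33.6, 39.9, 64.1 and 42.3 CPM in mice 1 to 5 in spleen, without overlap and with -1.43 ± 0.48 (SE), adjusted p = 0.087. In spleen Rgs3 was 119 ± 18.1 CPM in ST2- CD44hi and 59.0 ± 33.5 CPM in central Tregs (SD, n = 5 each). That difference, 1.01 ± 0.47 (SE), adjusted p = 0.25, did not pass, but it did with voom (1.24, adjusted p = 3.5e-05), also with a replicate block (1.24, adjusted p = 2.8e-05), and in a fit of the compared groups only (1.02, adjusted p = 0.029). Rgs10 in lungs was 258 ± 34.7 CPM (SD, n = 5) in central and 182 ± 21.9 CPM (SD, n = 5) in ST2- CD44hi Tregs, with -0.50 ± 0.18 (SE), adjusted p = 0.092.

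Levels of Rgs1 and Rgs2 also varied by mouse. In the 12 groups with 5 libraries, Rgs1 was lowest in mouse 1 in 10 groups and highest in mouse 4 in 7 and mouse 2 in 4. Rgs2 was lowest in mouse 1 in 6 groups and highest in mouse 4 in 7. With the mouse as a replicate block in edgeR, all 77 called fold changes of the 7 genes were called again, and with voom and the block 72 of the 77 were. The 77 were counted over all comparisons of fold changes, those of ST2 differences between tissues among them. Over all tested genes, 8.24% of these comparisons were called.

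Other members of the family were mostly near or at 0. Of 17 further genes, 14 had a median of 0 CPM over the 67 libraries and 5 were tested. Rgs11, an R7 member best known from neurons and retina, was called in skin, at 202 ± 46.5 against 20.4 ± 13.2 CPM (SD) in skin against spleen of ST2+ Tregs, and 212 ± 68.3 against 11.3 ± 8.24 CPM (SD) of ST2- CD44hi Tregs. These were log2 fold changes of 3.30 ± 0.82 (SE), adjusted p = 0.0012 and 4.24 ± 0.86 (SE), adjusted p = 8.0e-05. Rgs11 was also higher in colon than in spleen of ST2- CD44hi Tregs (2.40 ± 0.81 (SE), adjusted p = 0.041), a call lost in 6 of 16 alternatives. Rgs9, another R7 member, was lower in blood than in spleen of ST2- CD44hi Tregs, at 1.57 ± 3.16 against 24.7 ± 14.03 CPM (SD) (-3.92 ± 1.07 (SE), adjusted p = 0.019), and lost this call in 4 of 16 alternatives. Rgs5, a marker of pericytes, was found in 10 libraries, at up to 502 CPM, and Rgs4 in 7. Stromal markers reached 1219 summed CPM in colon and 751 CPM in skin libraries, and their part in Rgs4 and Rgs5 was not tested. Rgs18, a gene of platelets and megakaryocytes, averaged 19.1 CPM in blood ST2+ Tregs, the group with the most platelet marker counts, and was called in lungs, where ST2- CD44hi Tregs averaged 5.53 CPM and all 5 libraries of central Tregs were at 0.

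Some G protein subunit genes were higher in skin than in spleen, in comparisons with 29.1% (ST2+) and 30.9% (ST2- CD44hi) of tested genes called. Of 12 alpha subunit genes tested, 4 were higher and 0 lower in each population, a share near that background, with a median log2 fold change of 0.55 in ST2+ and 0.84 in ST2- CD44hi Tregs. Gna13, an alpha subunit of the G12 family, was 1151 ± 81.1 against 203 ± 22.9 CPM (SD) in ST2+ Tregs (2.5 ± 0.15 (SE), adjusted p = 5.1e-21). Gna15, a Gq class subunit of hematopoietic cells, differed by 1.29 ± 0.23 (SE), adjusted p = 8.9e-06 in ST2+ and 2.40 ± 0.24 (SE), adjusted p = 2.5e-12 in ST2- CD44hi Tregs, and Gnai3, an inhibitory subunit, by 0.72 ± 0.14 (SE), adjusted p = 3.1e-05 and 0.65 ± 0.14 (SE), adjusted p = 0.00014. Gna15 was also higher in ST2+ than in ST2- CD44hi Tregs of blood (1.68 ± 0.24 (SE), adjusted p = 3.3e-06) and spleen (1.28 ± 0.24 (SE), adjusted p = 0.0013), the tissues where Rgs2 was. Of 11 beta and gamma genes tested, 4 were higher in skin ST2+ and 6 in skin ST2- CD44hi Tregs and none was lower, among them Gnb1 (1.25 ± 0.11 (SE), adjusted p = 1.6e-14 in ST2+ Tregs) and Gnb4 (2.79 ± 0.34 (SE), adjusted p = 1.5e-09).

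Genes that shut off or carry the signal gave calls in both directions in the same skin comparisons. Of 7 receptor kinase and arrestin genes, only Arrb2, a beta-arrestin gene, was called, at -0.93 ± 0.29 (SE), adjusted p = 0.011 in ST2+ Tregs, and of 5 modifiers of G protein activation only Gpsm3, a GoLoco protein, at -1.17 ± 0.33 (SE), adjusted p = 0.0044. Of 13 effectors, 0 were higher and 1 lower in skin ST2+ and 2 higher and 1 lower in skin ST2- CD44hi Tregs. Adcy7, an adenylyl cyclase of leukocytes, was lower in skin by -1.37 ± 0.18 (SE), adjusted p = 1.3e-08 in ST2+ and -1.30 ± 0.18 (SE), adjusted p = 4.3e-08 in ST2- CD44hi Tregs. The 2 higher were Adcy4 and Plcb1, which averaged 6.17 and 1.54 CPM in skin and were at 0 in spleen. Plcb4, a phospholipase C beta, was higher in ST2+ than in ST2- CD44hi Tregs of blood (2.43 ± 0.45 (SE), adjusted p = 0.00030). Of 20 chemoattractant and lipid receptors, 9 were higher and 5 lower in skin ST2+ and 10 higher and 3 lower in skin ST2- CD44hi Tregs, beside the 29.1% and 30.9% of tested genes called. They included Cxcr4, the CXCL12 receptor, at 3.08 ± 0.29 (SE), adjusted p = 1.8e-13 in ST2+ Tregs, and Cxcr3, a receptor of interferon-induced chemokines, at -4.07 ± 0.47 (SE), adjusted p = 2.8e-10.

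The genes most like each RGS gene were ranked by Pearson's r of group means of log2 CPM over the 14 groups, among 9200 genes, as a description, since the groups share mice and tissues. Rgs2 was closest to Junb (r = 0.98), Chmp1b (0.97) and D8Ertd738e (0.97), of which Junb is in the immediate early list. Rgs1 was closest to Hsp90b1, an endoplasmic reticulum chaperone (0.96), Acpp (0.96) and Ptgs1, a cyclooxygenase (0.95). Rgs16 was closest to Tnfrsf1b, a TNF receptor gene (0.89), Ccr8, a chemokine receptor of tissue Tregs (0.88), and Orai1, a store-operated calcium channel (0.87). Rgs3 lay nearest to Aars (0.87), Atp9a (0.86) and Ficd (0.86), Rgs10 to Gm20696, Lrp6 and Xxylt1 (each 0.90), Rgs14 to Mindy1 (0.94), Pot1a (0.93) and Eif4ebp2 (0.91), and Rgs19 to Cdipt (0.94), Dennd6a (0.94) and Zranb2 (0.93). The order depended on the measure. By Spearman's rho, Ccr8 ranked 203 for Rgs16, D8Ertd738e 165 for Rgs2 and Dennd6a 145 for Rgs19. Chmp1b, Aars, Gm20696 and Mindy1 ranked 1 for Rgs2, Rgs3, Rgs10 and Rgs14. Among the 7 themselves, Pearson's r was furthest from 0 for Rgs16 with Rgs19 (-0.83), Rgs1 with Rgs2 (0.75) and Rgs1 with Rgs19 (-0.75).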

How the data were processed

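RNA of small numbers of sorted Tregs was amplified with SMART-Seq v4, made into Nextera XT libraries and sequenced as single reads. The deposited table holds raw counts per gene, which the authors made by aligning reads to GRCm38 with STAR and counting against Ensembl genes with HTSeq 0.4.1, without strand. These counts were not normalized, each column held a single library and every column matched a labelled sample. From these counts, libraries of over 1000000 counts were kept, tests covered protein-coding genes that reached 1 CPM in 10% of libraries or more, and CPM used TMM library sizes. The main test was edgeR 4.0.16 (quasi-likelihood, R 4.3.3), with a term for each of the 14 groups and no mouse term. A call needed a 1.5-fold change and, after Benjamini-Hochberg adjustment, p of 0.05 or less, with F tests judged by the adjusted p alone. The fold change and its SE are on the log2 scale, and intervals are 1.96 SE to each side. Totals of 1304560 to 2759926 counts (median 2039002) set the precision. The p-values measure the spread between libraries within groups, each from another mouse. Without a mouse term, they treat libraries of the same mouse in different groups as independent. The same mice gave every group, so samples pair by animal. Deviations from group means correlated by 0.083 on average over 27 pairs of libraries from the same mouse (9200 genes). Over 108 pairs of libraries from different mice the mean was -0.020. These numbers of pairs are those obtained by matching the CD44hi populations within each tissue. The values therefore do not cover pairs across tissues or pairs with central Tregs. The test was also run on counts simulated as independent between libraries, without a mouse effect. That run could not check the test for groups that share mice. Alternatives were voom with quality weights (limma 3.58.1), DESeq2 1.42.0, a replicate block, other scalings and filters, all 70 libraries, only the compared groups, cell number as a covariate, and each mouse left out. The 7 genes, the pathway lists and the markers were chosen with earlier results of these data known. Named were the 7 genes, up to 3 called genes of each list by the smallest adjusted p in a comparison described, leaving out folds against a group at 0, and the 3 genes most like each RGS gene.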

Additional observations from a re-analysis of the deposited data

Results flagged for a closer look

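In 91 tests of a gene in a group of 4 or 5 libraries, 6 found a library far from the rest of its group on the log2 scale, and chance alone flags about 1 in 20 such tests. All 6 were low values. Rgs1 was 231 CPM in the blood ST2- CD44hi library of mouse 1, where the other 4 held 566 to 649 CPM. Rgs3 was 4.83 CPM in the blood ST2+ library of mouse 3 (others 33.0 to 45.7 CPM), 41.1 CPM in the VAT ST2- CD44hi library of mouse 4 (89.6 to 117 CPM), 28.5 CPM in the colon ST2- CD44hi library of mouse 1 (64.0 to 85.1 CPM) and 2.80 CPM in the lungs central library of mouse 3 (17.4 to 32.0 CPM). Rgs16 was 39.2 CPM in the skin ST2- CD44hi library of mouse 4 (59.7 to 68.0 CPM).

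For Rgs14 the ST2 difference itself differed between tissues. It was larger in blood than the mean of the other 5 tissues by 0.65 on the log2 scale (adjusted p = 0.023), and the interaction of tissue and ST2 had adjusted p = 0.024. Without mouse 1, 3 or 4 the difference in blood was 0.52, 0.66 or 0.59, with adjusted p = 0.13 to 0.16.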

How the results depend on the processing

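The counts of called differences against spleen and of called tissue F tests stayed within 1.5 times their values in every alternative run. The 5 called ST2 differences fell to 1 with all 70 libraries, 1 with the compared groups only, 3 without the libraries of fewer than 220 cells (chosen after seeing the data) and 1 to 3 with a mouse left out. The 1 called difference between ST2- CD44hi and central Tregs became 2 with voom, 2 with voom and a replicate block and 2 with the compared groups only. The 1 called interaction became 2 with DESeq2, 2 with the edgeR replicate block, 2 with voom and a replicate block, 0 with all 70 libraries, 0 with the compared groups only, 0 without the libraries of fewer than 220 cells and 0 to 1 with a mouse left out. The edgeR replicate block changed no other count of calls.

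Of 1188 recomputed values of 77 called fold changes of the 7 genes, 1046 kept direction and call, 139 kept direction only and 3 turned. All reversals concerned Rgs10 in VAT. Without the libraries of fewer than 220 cells, which left 1 VAT ST2- CD44hi library, its ST2- CD44hi differences became 0.043 (VAT against spleen), 0.23 (VAT against lungs), -0.055 (colon against VAT) and -0.58 (skin against VAT). Its uncalled ST2 difference in VAT (-0.11) became 0.098 with voom, 0.093 with voom and the block and -0.49 to 0.30 with a mouse left out, the latter without mouse 1, and was called at -1.07 (adjusted p = 0.0016) without the libraries of fewer than 220 cells. The causes of these changes were not tested. With 3 to 5 mice a group, Rgs3 and Rgs16, the genes of lowest count, had the widest errors.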
